A study of Homo sapiens with 6 samples.

Results

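The Hippo pathway restrains growth through a kinase cascade, and its genes were followed here in A375 melanoma cells after knockout of SOX10. They were a list of named pathway components, TEAD transcription factors and YAP target genes, taken from the rows of the count table whose Ensembl identifiers carry those symbols. All 34 were found among the 58721 genes of the table, and all 34 were among the 19263 genes with enough counts to be tested. RNA was sequenced from 3 libraries of A375 cells that carried a guide RNA against SOX10, called SOX10 knockout, and from 3 libraries of A375 cells with a guide RNA against mCherry, labelled WT and called control. A375 is an established human melanoma line bought from ATCC and grown in DMEM with fetal bovine serum, and no drug or further treatment is named for either group. SOX10 is a transcription factor of the neural crest and melanocyte lineages, and mCherry is a fluorescent protein gene that the human genome lacks. Whether the knockout cells were a clone or a pool, and how the guide was delivered, is not stated in the sources used here.

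In the Hippo cascade the kinases STK3 and STK4, helped by the scaffold SAV1, activate the kinases LATS1 and LATS2 with their MOB1 adaptors. LATS kinases phosphorylate the coactivators YAP (gene YAP1) and TAZ (gene WWTR1), which then stay in the cytoplasm or are degraded. Unphosphorylated YAP and TAZ bind TEAD factors in the nucleus and switch on genes such as ANKRD1, AMOTL2 and LATS2, some of which feed back on the cascade. In melanoma, YAP, TAZ and TEAD are best known from dedifferentiated, invasive and drug-tolerant cells. Transcript levels, measured here, report neither phosphorylation nor location of these proteins.

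Library totals ran from 70075002 to 78148565 counts, and the smallest count of any of the 34 genes in a library was 326 (NUAK2). SOX10 itself stood at 47.2, 47.8 and 41.5 CPM (counts scaled to library size with TMM factors) in knockout libraries and at 241, 237 and 223 CPM in control libraries. The knockout libraries thus kept 17.7% to 20.4% of the control mean (edgeR quasi-likelihood test, adjusted p = 1.84e-07; exact two-sided permutation p = 0.1, which no grouping of 3 and 3 libraries can undercut). The 7 markers of the melanocyte lineage summed to 138.5 to 143 CPM in knockout and 91.95 to 95.6 CPM in control libraries. Of them MLANA, PMEL and TYR, which make pigment cells recognisable, were near 0 in both groups, with MLANA at a mean of 0.770 CPM in knockout and 0.874 CPM in control libraries, while MITF stood at 138 and 57.5 CPM. In the same list S100B averaged 1.28 ± 0.134 CPM in knockout and 32.9 ± 4.34 CPM in control libraries (edgeR adjusted p = 1.17e-07), and DCT 0.0657 ± 0.0258 and 1.62 ± 0.175 CPM (edgeR adjusted p = 5.45e-06). TYR had too few counts to be tested. Of the 6 markers tested, MITF and TYRP1 were called higher and S100B and DCT lower. That is 2 in each direction, against 14.0% of all genes tested. TYRP1 was near 0 in both groups, at 0.230 CPM in knockout and 0.0731 CPM in control libraries (edgeR adjusted p = 0.021). Markers of cell types other than melanocytes were also summed. The 6 leukocyte markers together gave 0.141 to 0.306 CPM in knockout and 0.181 to 0.485 CPM in control libraries, and the 6 endothelial markers 3.42 to 4.50 and 6.86 to 8.88 CPM. Of the endothelial markers KDR was lower, at 0.175 ± 0.128 CPM in knockout and 6.32 ± 1.10 CPM in control libraries, while CDH5 (1.96 and 0.431 CPM) and PECAM1 (1.13 and 0.292 CPM) were called higher. The 8 fibroblast markers gave 22.01 to 24.9 CPM in knockout against 10.9 to 14.7 CPM in control libraries. Of the 8, 6 were called higher and 1 lower, against 14.0% of all genes tested in each direction. Most of the sum was LUM (14.06 ± 1.88 CPM in knockout and 7.84 ± 1.98 CPM in control libraries). Each of the other fibroblast markers averaged at most 2.685 CPM in either group. The part of the fibroblast markers in the results below was not tested. The 7 epithelial markers gave 52.5 to 66.9 and 48.3 to 64.4 CPM, most of it KRT10 (58.4 ± 7.15 and 49.05 ± 7.52 CPM), with KRT1 at 0 in every library. KRT14 was lower, at 0.249 ± 0.0110 CPM in knockout and 7.16 ± 0.789 CPM in control libraries, and KRT5 higher, at 0.788 ± 0.0964 and 0.110 ± 0.00185 CPM. The part of the melanocyte, endothelial and epithelial markers in the results was not tested either. In bulk RNA, fewer cells of a type and less RNA per cell cannot be told apart. The labels do not state whether replicates were separate cultures; p-values therefore reflect the spread among these 6 libraries alone, possibly a technical one.

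Most of the Hippo pathway genes changed. They were chosen with earlier results of these data known, so the shares below describe the list and do not test it. In edgeR 20 of the 34 were called (adjusted p under 0.05; 58.8%), against 28.0% of all genes tested and 29.7% of those averaging 5 CPM or more. In knockout libraries 9 rose (26.5%, against 14.0% of all genes and 13.1% of genes with at least 5 CPM) and 11 fell (32.4%, against 14.0% and 16.6%). By the roles assigned here, 5 of 10 target genes rose and none fell, whereas of the other 24 genes 4 rose and 11 fell. LATS2, WWC1, AMOTL2 and PTPN14, which are pathway components and also known YAP targets, were counted among the 24, and LATS2 fell. The median log2 fold change of knockout over control was 0.39 for the target genes and -0.15 for the others, beside -0.02 over all genes tested. Changes of at least 1.5-fold were found among the called genes for 10 of the 34, against 16.3% of all genes tested. In a test against a 1.5-fold change (glmTreat), 7 of the 34 passed, against 10.3% of all genes: ANKRD1, F3, NUAK2, WWC1 and VGLL3 upward and AMOT and WWTR1 downward. The groups did not overlap for the 20 called genes, and they overlapped for each of the other 14; 41.6% of all genes tested had groups without overlap, 20.0% with knockout higher and 21.5% with knockout lower.

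**Figure D1:**
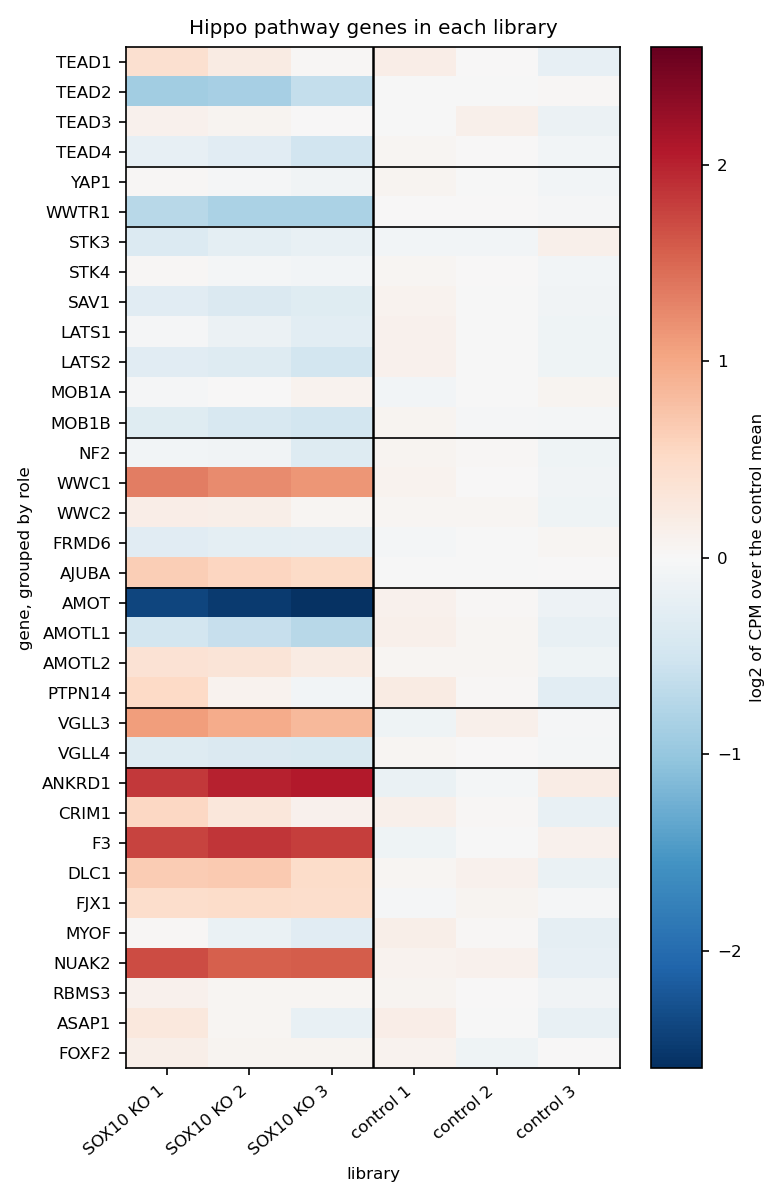
Each row is a gene, grouped by role from TEAD factors at the top to target genes at the bottom, and each column a library, with SOX10 knockout on the left and control on the right. Colour gives the log2 of CPM over the control mean; AMOT is the darkest blue row (13.8 CPM in knockout against 76.8 CPM in control) and ANKRD1, F3 and NUAK2 the darkest red.

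The TEAD factors carry YAP and TAZ to DNA. Of the 4, 2 fell, against 14.0% of all genes tested and 16.6% of those averaging 5 CPM or more. TEAD1, the most abundant of them, stood at 238, 207 and 182 CPM in knockout and at 201, 182 and 156 CPM in control libraries. These groups overlap, and TEAD1 was not called (log2 fold change 0.22, SE 0.12, edgeR adjusted p = 0.22). TEAD2 (chromosome 19, 49340595 to 49362457, minus strand, GRCh38) had 6.07, 6.26 and 7.37 CPM in knockout libraries, against 11.2, 11.4 and 11.6 CPM in control libraries. Every knockout library lay below every control library, and the log2 fold change of -0.79 (SE 0.09) passed the test (edgeR adjusted p = 2.75e-04). TEAD4 had 29.6, 27.6 and 24.2 CPM in knockout libraries and 35.2, 34.5 and 32.7 CPM in control libraries. It fell by 0.33 on the log2 scale (SE 0.08, edgeR adjusted p = 0.0189), but the call was lost without control replicate 1 (adjusted p = 0.0643), control replicate 2 (0.0769) or knockout replicate 2 (0.0737), and with scaling by total counts (0.051). TEAD3 had 7.46, 7.28 and 6.92 CPM in knockout and 6.89, 7.605 and 6.20 CPM in control libraries, with overlapping groups (edgeR adjusted p = 0.678). Levels of different genes were compared as CPM per kilobase of exon. On that scale TEAD1 made up 56.9%, 54.8% and 53.5% of the summed TEAD level in knockout libraries, against 47.6%, 45.1% and 42.7% in control libraries. TEAD4 held 32.4% ± 0.539 in knockout and 39.0% ± 1.46 in control libraries, and TEAD2 6.06% ± 1.27 and 9.95% ± 0.907 (SD, n = 3 each). The summed TEAD level itself overlapped between groups, at 36.9 ± 3.78 CPM per kb in knockout and 38.6 ± 2.86 CPM per kb in control libraries.

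The coactivators YAP and TAZ are paralogs that LATS kinases control in the same way, and their transcripts differed in response. YAP1 (chromosome 11, 102110461 to 102233423, plus strand) had 203, 194 and 185 CPM in knockout libraries and 207, 197 and 189 CPM in control libraries. The groups overlap almost fully, and the log2 fold change of -0.03 (SE 0.06) did not pass the test (edgeR adjusted p = 0.791); it was 0.01 with scaling by total counts. WWTR1 (chromosome 3, 149517235 to 149736714, minus strand), the gene of TAZ, had 528, 494 and 494 CPM in knockout libraries, against 883, 881 and 850 CPM in control libraries. All knockout libraries lay far below the controls, and WWTR1 fell by 42.0% (log2 fold change -0.79, SE 0.06, edgeR adjusted p = 1.71e-05). Per kilobase of exon, WWTR1 was the most abundant of the 34 genes in control libraries, at 103.5 ± 2.20 CPM per kb, and the second after CRIM1 in knockout libraries, at 60.05 ± 2.32 CPM per kb (SD, n = 3 each). Per kilobase of the longest coding transcript, a length added after seeing the data, WWTR1 was first in both groups, at 100.4 CPM per kb in knockout and 173 CPM per kb in control libraries, and CRIM1 stood at 73.2 and 58.5 CPM per kb. Per kilobase of exon, the ratio of WWTR1 to YAP1 was 1.94, 1.90 and 2.00 in knockout and 3.18, 3.34 and 3.36 in control libraries. TAZ transcripts thus remained the more abundant in each library. The sum of both coactivators per kilobase of exon was 90.9 ± 3.69 CPM per kb in knockout and 135.0 ± 3.52 CPM per kb in control libraries, without overlap.

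**Figure D2:**
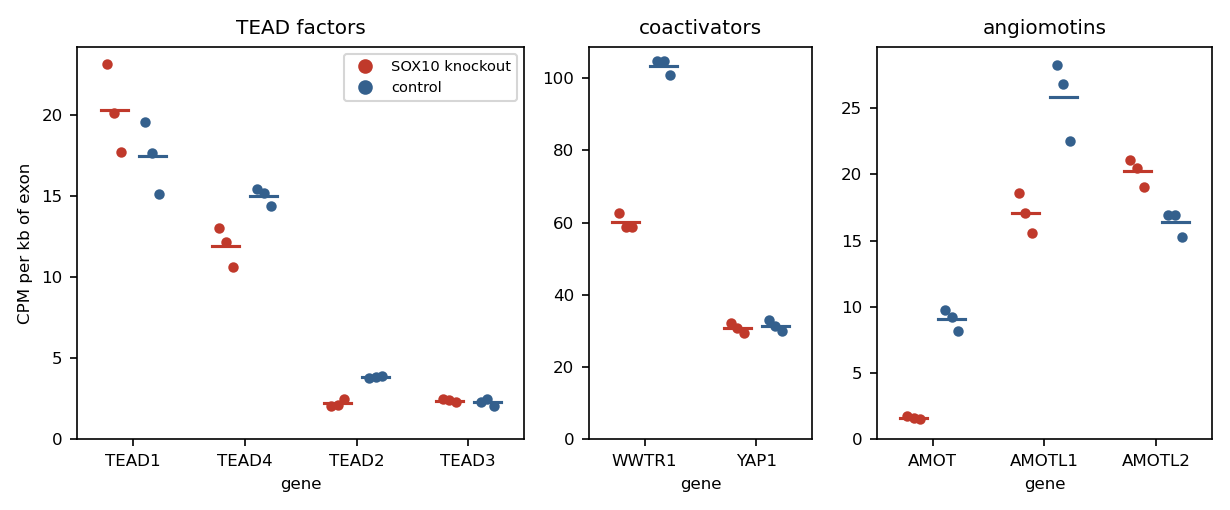
Levels in CPM per kilobase of exon (linear axes from 0) of the TEAD factors, the coactivators and the angiomotins, with a point per library, a line at the group mean, and SOX10 knockout left of control for each gene. WWTR1 and AMOT separate fully between the groups, whereas YAP1 and TEAD1 overlap.

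Of the core kinases and their adaptors 4 of 7 fell (against 14.0% of all genes tested and 16.6% of those averaging 5 CPM or more) and none rose, each by less than 1.5-fold, with a median log2 fold change of -0.26. LATS1 had 70.7, 64.3 and 58.95 CPM in knockout and 76.97, 71.6 and 66.6 CPM in control libraries, with overlapping groups (edgeR adjusted p = 0.246). LATS2 had 30.6, 29.8 and 27.0 CPM in knockout libraries and 40.5, 37.1 and 34.5 CPM in control libraries. LATS2, which is also a YAP target gene, thus fell without overlap (log2 fold change -0.36, SE 0.08, edgeR adjusted p = 0.0115). MOB1B, an adaptor that activates LATS kinases, averaged 53.0 ± 3.03 CPM in knockout and 70.2 ± 3.22 CPM in control libraries (log2 fold change -0.40, edgeR adjusted p = 0.00234). Its paralog MOB1A, at 310 ± 15.0 and 305.5 ± 15.5 CPM, did not pass the test (adjusted p = 0.858), and the ratio of MOB1A to MOB1B per kilobase was 8.02 ± 0.817 in knockout and 5.97 ± 0.549 in control libraries. The scaffold gene SAV1 averaged 69.3 ± 2.17 CPM in knockout and 87.3 ± 5.49 CPM in control libraries (edgeR adjusted p = 0.00589; 0.0499 without knockout replicate 2). STK3, the gene of MST2, averaged 64.7 ± 3.87 and 77.7 ± 6.26 CPM (edgeR adjusted p = 0.0356). Its call depended on single libraries: the adjusted p was 0.0718 without control replicate 2, 0.066 without control replicate 3, 0.11 without knockout replicate 1 and 0.117 without knockout replicate 2. STK4, the gene of MST1, averaged 175 ± 7.52 CPM in knockout and 179 ± 6.82 CPM in control libraries and did not pass (adjusted p = 0.767), with a log2 fold change of -0.03 that was 0.01 with scaling by total counts. In each of the pairs STK3 with STK4, LATS2 with LATS1 and MOB1B with MOB1A, the member that is lower per kilobase in control libraries was the one that fell; the difference between paralogs was not tested.

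Upstream of the kinases, WWC1 rose. WWC1 (chromosome 5, 168291651 to 168472303, plus strand) encodes KIBRA, a scaffold that promotes LATS activation and is itself reported as a YAP target. WWC1 had 26.3, 24.4 and 23.3 CPM in knockout libraries, against 11.1, 10.5 and 9.80 CPM in control libraries. No libraries overlap, and WWC1 was 2.36-fold higher, a log2 fold change of 1.24 (SE 0.08, edgeR adjusted p = 7.22e-06). Its paralog WWC2 averaged 97.3 ± 4.87 CPM in knockout and 89.3 ± 5.43 CPM in control libraries and did not pass (adjusted p = 0.234); per kilobase WWC1 reached 0.251 ± 0.00590 of the WWC2 level in knockout and 0.116 ± 0.00347 in control libraries. AJUBA, a LIM domain protein that inhibits LATS kinases, averaged 89.1 ± 4.51 CPM in knockout and 60.2 ± 0.776 CPM in control libraries (log2 fold change 0.57, edgeR adjusted p = 1.73e-04). FRMD6, a FERM domain protein, averaged 127 ± 2.55 CPM in knockout and 151.5 ± 5.35 CPM in control libraries and fell by 0.26 on the log2 scale (edgeR adjusted p = 0.00937), a call lost without control replicate 2 (0.0515) or knockout replicate 2 (0.058). NF2, the gene of the tumour suppressor merlin, averaged 94.4 ± 9.09 and 105 ± 6.94 CPM, with overlapping groups (adjusted p = 0.22).

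The angiomotins hold YAP at cell junctions, and AMOT showed the widest change of the 34 genes. AMOT (chromosome X, 112774503 to 112840815, minus strand) had 14.8, 13.8 and 12.9 CPM in knockout libraries, against 82.6, 78.1 and 69.7 CPM in control libraries. The highest knockout library lay far below the lowest control library, and AMOT was 5.55-fold lower, a log2 fold change of -2.47 (SE 0.09, edgeR adjusted p = 2.98e-07). AMOTL1 had 187, 171 and 156 CPM in knockout libraries and 284, 269 and 226 CPM in control libraries. It also fell without overlap, by 0.60 on the log2 scale (SE 0.10, edgeR adjusted p = 0.00237). AMOTL2, itself a YAP target gene, went the other way, at 121 ± 6.32 CPM in knockout and 97.9 ± 5.82 CPM in control libraries (log2 fold change 0.31, edgeR adjusted p = 0.0112), though its adjusted p was 0.0558 without knockout replicate 2. Per kilobase, AMOT made up 4.18% ± 0.0394 of the 3 angiomotins in knockout and 17.6% ± 0.249 in control libraries, while AMOTL2 made up 52.0% ± 0.936 and 32.0% ± 1.18 (SD, n = 3 each). The angiomotin sum was 38.9 ± 2.66 CPM per kb in knockout and 51.3 ± 4.74 CPM per kb in control libraries, without overlap. PTPN14, a phosphatase that binds YAP and is also a target gene, had 331, 246 and 221 CPM in knockout and 267, 236 and 190 CPM in control libraries, so wide a spread that its groups overlap (adjusted p = 0.423).

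The VGLL cofactors bind TEAD factors in place of YAP and TAZ, and they moved apart. VGLL3 had 12.1, 11.1 and 10.1 CPM in knockout libraries, against 5.24, 6.24 and 5.52 CPM in control libraries. The groups are separate, and VGLL3 was 1.96-fold higher, a log2 fold change of 0.97 (SE 0.10, edgeR adjusted p = 1.49e-04), though it remained the lowest of the 34 genes per kilobase in either group. VGLL4, a repressor that competes with YAP, averaged 28.1 ± 0.655 CPM in knockout and 36.1 ± 1.31 CPM in control libraries and fell by 0.36 on the log2 scale (edgeR adjusted p = 0.00226). VGLL4 exons overlap exons of ATG7 on the opposite strand over 1596 bases, 22.1% of its exon length, and how the authors' counting treated strand is not stated, so reads of the pair may be mixed. Exons of TEAD2, WWTR1 and SAV1 overlap those of CD37, WWTR1-AS1 and ATL1 on the opposite strand, each with a mean of at most 1.16 CPM, and MOB1B shares 199 exon bases with DCK on its own strand.

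**Figure D3:**
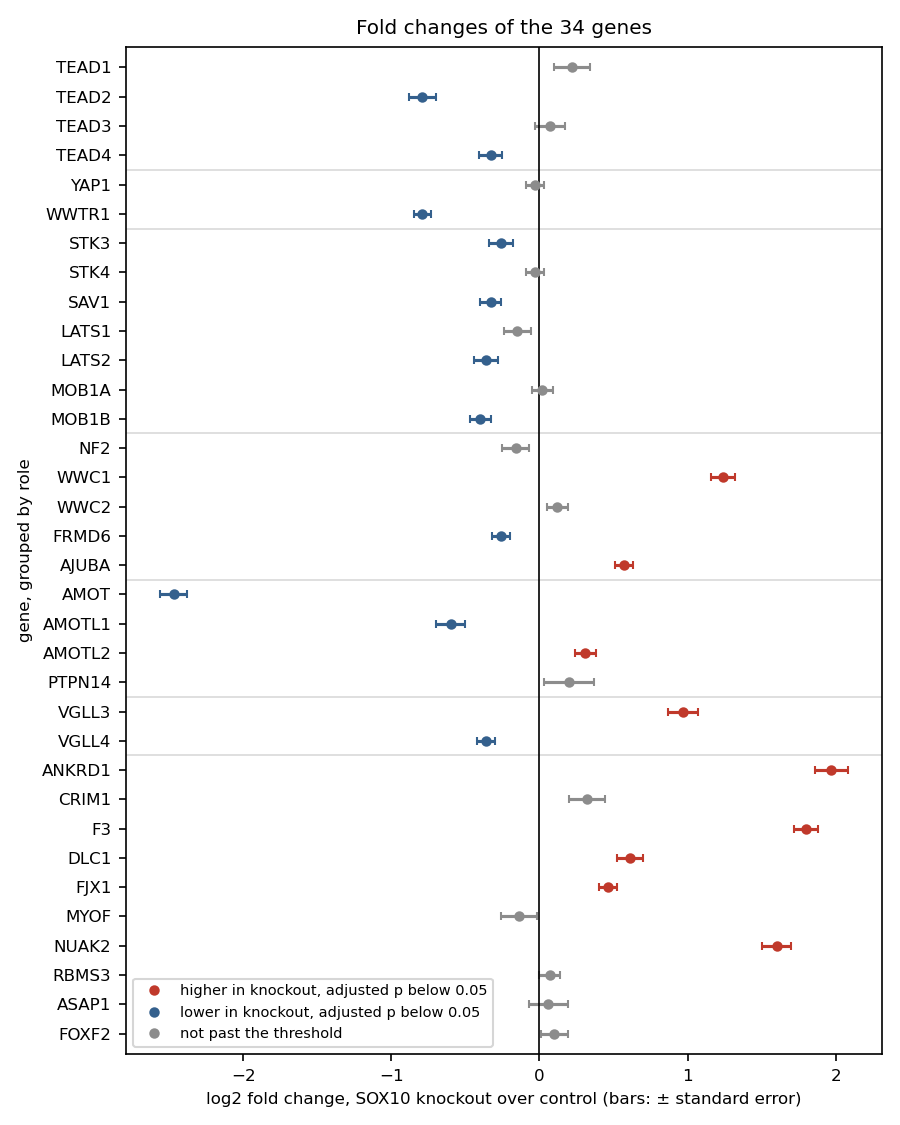
Log2 fold changes of SOX10 knockout over control for the 34 genes, grouped by role, with bars of ± 1 standard error from the edgeR fit; red and blue mark genes higher and lower in knockout at an adjusted p below 0.05. AMOT (-2.47) and ANKRD1 (1.97) are the extremes.

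Among the target genes 3 rose at least 3-fold. ANKRD1 (chromosome 10, 90912096 to 90921276, minus strand), a muscle ankyrin repeat protein widely used as a readout of YAP and TAZ, had 99.8, 112 and 116 CPM in knockout libraries, against 24.7, 26.8 and 31.8 CPM in control libraries. All knockout libraries lay above all controls, and ANKRD1 was 3.93-fold higher, a log2 fold change of 1.97 (SE 0.11, edgeR adjusted p = 2.45e-06). Per kilobase it was the third most abundant of the 34 genes in knockout libraries, at 55.1 ± 4.17 CPM per kb, against 14.0 ± 1.85 CPM per kb in control libraries, where it ranked 14th. With the longest coding transcript as length it ranked 5th in knockout and 18th in control libraries. F3 (chromosome 1, 94529225 to 94541800, minus strand), the gene of tissue factor, which starts blood clotting, had 43.6, 46.8 and 45.3 CPM in knockout libraries and 11.95, 12.8 and 14.1 CPM in control libraries. The groups are separate, and F3 was 3.49-fold higher, a log2 fold change of 1.80 (SE 0.08, edgeR adjusted p = 7.84e-07). NUAK2 (chromosome 1, 205302059 to 205321791, minus strand), a kinase related to AMPK that is known to reinforce YAP activity, had 16.9, 15.4 and 15.6 CPM in knockout libraries, against 5.56, 5.66 and 4.52 CPM in control libraries. It rose 3.04-fold, again without overlap (log2 fold change 1.60, SE 0.10, edgeR adjusted p = 7.03e-06).

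Smaller rises were seen for DLC1 and FJX1. DLC1 had 83.7, 84.6 and 73.1 CPM in knockout libraries and 54.9, 56.6 and 46.6 CPM in control libraries. Its groups do not overlap (log2 fold change 0.61, SE 0.09, edgeR adjusted p = 0.00138). FJX1, the human counterpart of the Drosophila gene four-jointed, averaged 27.0 ± 0.254 CPM in knockout and 19.6 ± 0.791 CPM in control libraries (log2 fold change 0.46, edgeR adjusted p = 6.61e-04). The other 5 target genes did not pass. CRIM1, a transmembrane protein that binds BMPs, averaged 433 ± 63.7 CPM in knockout and 346 ± 39.6 CPM in control libraries, with overlapping groups (log2 fold change 0.32, SE 0.12, edgeR adjusted p = 0.082). CRIM1 passed in DESeq2 (adjusted p = 0.0412), when no low-count filter was used (0.0393) and without knockout replicate 3 (0.0358). MYOF, a ferlin of membrane repair, averaged 418 ± 48.9 CPM in knockout and 461 ± 61.1 CPM in control libraries (edgeR adjusted p = 0.432). ASAP1, an Arf GTPase activating protein, stood at 100.5 ± 16.2 and 96.7 ± 12.8 CPM, the RNA-binding protein gene RBMS3 at 27.6 ± 0.735 and 26.3 ± 1.57 CPM, and the forkhead factor gene FOXF2 at 6.85 ± 0.241 and 6.38 ± 0.467 CPM; their adjusted p-values in edgeR ran from 0.45 to 0.803.

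**Figure D4:**
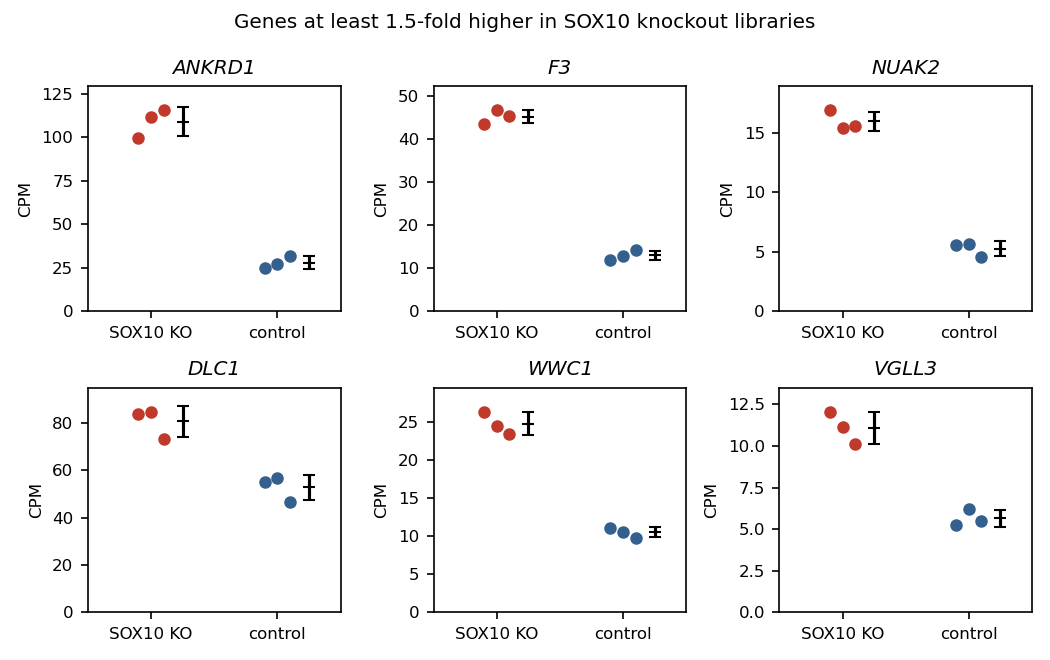
CPM (linear axes from 0) in each library of the 6 Hippo pathway genes that rose at least 1.5-fold, with SOX10 knockout left of control; points are libraries, and bars beside them the mean ± SD (n = 3). The groups do not overlap in any panel, and ANKRD1 shows the widest fold (3.93).

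Promoters were read for the 3 genes that rose most and, for contrast, for AMOT and TEAD2, which fell. The motifs were chosen after these results were known. TEAD factors recognise GGAATG, AP-1 factors, which often bind beside them, recognise TGANTCA, and SOX factors bind ACAAAG or ACAATG; each was searched on both strands of the 250 bases before the RefSeq start (GRCh38.p14). Sequences run 5′ to 3′ on the strand of the gene, and capitals mark these motifs, no 2 of which overlap.
ANKRD1 (chr10:90921088-90921337, minus strand): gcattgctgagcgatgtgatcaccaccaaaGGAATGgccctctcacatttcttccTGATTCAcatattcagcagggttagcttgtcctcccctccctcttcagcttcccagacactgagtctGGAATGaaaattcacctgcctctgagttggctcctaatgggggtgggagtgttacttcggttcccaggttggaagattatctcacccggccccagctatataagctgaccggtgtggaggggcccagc
NUAK2 (chr1:205321746-205321995, minus strand): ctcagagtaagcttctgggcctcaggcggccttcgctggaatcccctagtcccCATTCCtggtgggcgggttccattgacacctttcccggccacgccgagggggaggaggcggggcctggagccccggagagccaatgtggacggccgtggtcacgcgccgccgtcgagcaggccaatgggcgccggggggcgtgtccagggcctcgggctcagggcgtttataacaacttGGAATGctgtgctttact
F3 (chr1:94541760-94542009, minus strand): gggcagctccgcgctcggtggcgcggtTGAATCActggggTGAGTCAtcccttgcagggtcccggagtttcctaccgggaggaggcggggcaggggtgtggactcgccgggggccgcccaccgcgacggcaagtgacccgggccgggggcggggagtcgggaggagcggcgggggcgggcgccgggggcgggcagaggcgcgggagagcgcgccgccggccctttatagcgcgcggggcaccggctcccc
TEAD2 (chr19:49362417-49362666, minus strand): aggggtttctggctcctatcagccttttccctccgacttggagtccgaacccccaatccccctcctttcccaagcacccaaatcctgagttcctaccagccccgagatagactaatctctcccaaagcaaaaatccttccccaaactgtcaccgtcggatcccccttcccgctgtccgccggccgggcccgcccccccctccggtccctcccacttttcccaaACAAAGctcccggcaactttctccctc
AMOT (chrX:112840832-112841081, minus strand): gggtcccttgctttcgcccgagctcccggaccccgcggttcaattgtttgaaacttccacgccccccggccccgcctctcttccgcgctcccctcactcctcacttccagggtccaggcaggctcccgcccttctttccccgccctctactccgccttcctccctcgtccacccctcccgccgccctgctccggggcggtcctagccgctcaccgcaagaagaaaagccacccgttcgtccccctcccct

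ANKRD1 holds GGAATG with first bases 220 and 128 bases before its start, with TGANTCA between them at 195. NUAK2 holds the TEAD motif on its minus strand at 197 and on its plus strand at 18 bases before the start. F3 holds no GGAATG in this window but has TGANTCA at 223 and 210. The TEAD2 window was picked for holding ACAAAG, which lies 27 bases before its start, so the presence of that motif was fixed beforehand. For the other printed genes the first window was taken, and AMOT holds none of the motifs. Of the 34 genes 28 had at least 1 window (TEAD1, TEAD4, STK3, CRIM1, DLC1 and ASAP1 had none). GGAATG was found for 8 of these 28 (28.6%), against 14.3% of 27305 genes with windows of the same length: AJUBA, AMOTL2, ANKRD1 and NUAK2, which rose, and YAP1, WWC2, PTPN14 and FOXF2, which did not pass the test. TGANTCA was found for 4 of 28 (14.3%, against 8.06% of genes), ACAAAG for 4 (14.3%, against 16.3%) and ACAATG for 2 (7.14%, against 11.2%). The 4 genes with ACAAAG were TEAD2, WWTR1, AMOTL1 and VGLL4, all of them called lower, a grouping seen only after the values were known. A match describes these letters and shows no binding.

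Further genes of the pathway, also chosen with earlier results of these data known, were counted for comparison. Of 10 further YAP and TAZ target genes 7 rose and 1 fell, against 14.0% of all genes tested in each direction, with a median log2 fold change of 0.62. TGFB2, a TGF-beta ligand, averaged 18.7 ± 0.679 CPM in knockout and 4.53 ± 0.602 CPM in control libraries (edgeR adjusted p = 1.71e-06), and NT5E, the ectonucleotidase CD73, 146 ± 2.40 and 68.4 ± 1.84 CPM (edgeR adjusted p = 1.85e-06). IGFBP3, which binds insulin-like growth factors, averaged 12.1 ± 1.49 and 48.2 ± 1.45 CPM and was the one that fell. The matricellular genes CCN1 and CCN2, named here as the best known targets rather than by size, averaged 208 ± 8.59 and 121 ± 7.22 CPM in knockout and 104 ± 2.12 and 73.3 ± 1.83 CPM in control libraries (edgeR adjusted p = 4.12e-06 for CCN1 and 5.89e-05 for CCN2). With the 10 targets above, 12 of 20 target genes rose and 1 fell. These 20 leave out LATS2, WWC1, AMOTL2 and PTPN14, pathway components that are also known YAP targets. Of those, WWC1 and AMOTL2 rose, LATS2 fell and PTPN14 did not pass the test.

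The lists of kinases and complexes around the cascade are read against the 28.0% of all genes tested that were called. Of 10 TAO and MAP4K kinases, which can activate LATS in parallel to the MST kinases, 1 rose, MAP4K3, at 62.9 ± 0.759 CPM in knockout and 52.9 ± 1.30 CPM in control libraries (edgeR adjusted p = 0.0101; 0.0628 without control replicate 2 and 0.0539 without knockout replicate 2). Of 13 tested genes of STRIPAK, a phosphatase complex that keeps MST kinases inactive, STRIP2 rose (22.3 ± 1.40 CPM in knockout and 11.3 ± 0.908 CPM in control libraries) and STRN4 fell by 0.27 on the log2 scale, with an adjusted p of 0.0149 that was 0.0507 without control replicate 1, 0.0726 without control replicate 2 and 0.0507 without knockout replicate 3. Among 11 genes of YAP retention and turnover, 3 were called (27.3%), near the share over all genes. SFN rose (4.67 ± 0.284 CPM in knockout and 1.11 ± 0.473 CPM in control libraries, edgeR adjusted p = 2.84e-04), while YWHAG and CSNK1E fell by 0.21 and 0.32. Both calls were lost with scaling by total counts (adjusted p = 0.0812 for YWHAG and 0.0732 for CSNK1E). The call of YWHAG was lost without any 1 of the 6 libraries except control replicate 3 (adjusted p of 0.0587 to 0.119), and that of CSNK1E without control replicate 1 (0.0909) or 2 (0.112) or knockout replicate 2 (0.107) or 3 (0.0812).

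Polarity genes and atypical cadherins, which feed into the cascade at cell contacts, went both ways: of 19 tested 5 rose and 4 fell, with 10 not called, against 14.0% of all genes tested in each direction. FAT3 averaged 2.63 ± 0.449 CPM in knockout and 12.3 ± 1.76 CPM in control libraries (edgeR adjusted p = 1.15e-05), and DCHS1, a cadherin that pairs with FAT proteins, 0.148 ± 0.0269 and 0.904 ± 0.281 CPM (edgeR adjusted p = 4.08e-04). DCHS1 was thus low in both groups, where 3 counts corresponded to 0.0383 to 0.0417 CPM. DLG1, a junction scaffold, averaged 96.7 ± 2.75 CPM in knockout and 73.3 ± 0.921 CPM in control libraries, and PATJ, of the Crumbs complex, 9.27 ± 0.277 and 6.62 ± 0.453 CPM; both rose.

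**Figure D5:**
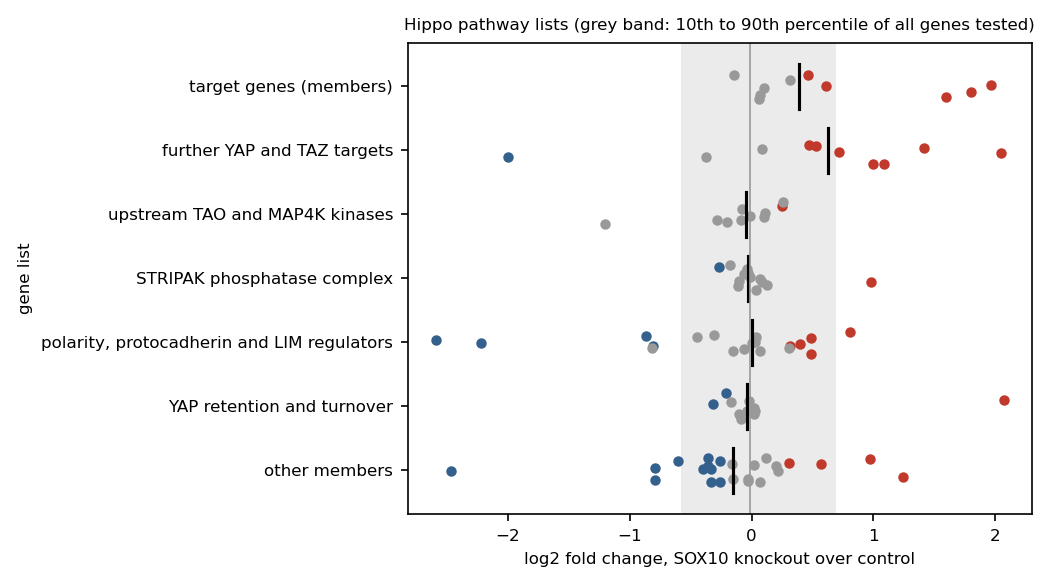
Log2 fold changes of SOX10 knockout over control for tested genes of each list, a point per gene with a black line at the list median; red and blue mark genes called higher and lower, and the grey band spans -0.57 to 0.69, the 10th to 90th percentile of all genes tested. The 2 target lists have medians of 0.39 and 0.62, and the genes of the list other than targets have a median of -0.15.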

How the data were processed

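The table that the authors deposited holds unnormalized read counts for each gene of 6 libraries (3 SOX10 knockout, 3 control), put in groups by their titles. HISAT2, HTSeq and hg38 are named per the submitters' processing notes; versions, annotation release and strand setting are not stated in the sources used here. RNA was extracted by column and made into libraries with a KAPA stranded mRNA kit, per the labels' protocols. All 58721 identifiers matched GENCODE release 29 (GRCh38), which gave coordinates and exon lengths (the union of a gene's exons), and 58207 had a symbol. Totals were 70075002 to 78148565 counts, and 3 counts corresponded to 0.0383 to 0.0417 CPM.

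Counts were tested in R 4.3.3 with edgeR 4.0.16: filterByExpr, TMM and the quasi-likelihood test, two-sided, with group as the only term; p-values were adjusted by Benjamini-Hochberg over 19263 genes, with a threshold of 0.05. Standard errors come from that fit. The procedure was checked on simulated counts with a fixed dispersion, no trend shared by replicate numbers and far fewer changed genes than were called here. Alternatives were DESeq2 1.42.0, limma-voom (limma 3.58.1), other scalings and filters, the replicate number as a block, each library left out, and glmTreat; transcript length in place of exon length was added after seeing the data. Plots and tables used Python 3.11.15, pandas 2.3.3 and matplotlib 3.10.9. Every library differed from its replicates by more than sampling noise. The genes and lists were chosen with earlier results of these data known. Values in each library are given for called genes with a fold change of at least 1.5 and for the TEAD, YAP, TAZ and LATS genes; of each further list up to 2 called genes per direction with the smallest p are named.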

Additional observations from a re-analysis of the deposited data

How the results depend on the processing

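The SOX10 call held in the 9 alternatives run for it (total counts, DESeq2, the block and each library left out; log2 fold change -2.40 to -2.30). Of the called Hippo pathway genes 16 of 20 kept their direction and their side of the threshold in all 13 alternative fits other than glmTreat; TEAD4, STK3, FRMD6 and AMOTL2 did not, and the cause was not tested. Leaving out 1 library gave 16 to 21 called genes of the 34 (8 to 10 higher, 8 to 11 lower) and 3797 to 5893 over all genes (1986 to 2935 higher, 1794 to 2958 lower, fewest lower without knockout replicate 2). Against a 1.5-fold change, glmTreat called 7 of the 34 (5 higher, 2 lower) and 1976 genes in all (1064 higher, 912 lower), since it tests a narrower claim. Directions of genes that did not pass changed for TEAD3 (-0.01 to 0.14 when 1 library was left out), YAP1 (-0.06 to 0.01; 0.01 with total counts), STK4 (-0.06 to 0.003; 0.01 with total counts), MOB1A (-0.02 to 0.06) and ASAP1 (-0.06 to 0.17). With the longest coding transcript as length, the WWTR1 to YAP1 ratio was 2.79 in knockout and 4.72 in control libraries, and the AMOT share 3.96% and 17.2%.

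Replicate numbers are shared between groups, but do not establish pairs: deviations from the group means correlated at 0.279, -0.00459 and 0.288 for numbers 1, 2 and 3. Between unlike numbers they correlated at -0.307 (knockout 1 with control 3) and -0.26 (knockout 3 with control 1). The other unlike pairs lay between -0.0507 and 0.0526. Deviations within a group cancel by construction, so the values for unlike numbers are not independent of those for like numbers. As a hint from the data, 18 of the 34 genes had replicate 1 highest and replicate 3 lowest in both groups. That is 52.9%, against 17.9% of all genes tested and 26.4% of those averaging 5 CPM or more. The reverse order held for 14.7%, against 18.0% and 27.6%. Genes with the first order were longer. Their median exon length was 8443 against 5804.5 bases among the 34, and 7130 against 3448 bases among all genes tested. The part of exon length in this order was not tested. With the replicate block 27 of the 34 genes passed (13 higher, 14 lower), among 9813 of all genes (50.9%; 4637 higher, 5176 lower); the genes gained were TEAD1, LATS1, NF2, WWC2, PTPN14, CRIM1 (adjusted p = 1.9e-09) and MYOF. The block lost none of the 20, and SOX10 stayed called.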

Other observations

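YAP1 lies beside genes that changed although it did not. Of 7 genes next to it on chromosome 11, 5 were tested and 3 rose, against 14.0% of all genes tested: BIRC3, an inhibitor of apoptosis, averaged 12.9 ± 0.782 CPM in knockout and 4.90 ± 0.604 CPM in control libraries (edgeR adjusted p = 2.00e-05), CEP126, a centrosomal protein gene, 13.8 ± 1.15 and 7.59 ± 0.706 CPM (edgeR adjusted p = 2.52e-04), and CFAP300, a cilium gene named here after its values were seen, 1.88 ± 0.193 and 0.812 ± 0.124 CPM (edgeR adjusted p = 8.76e-04). BIRC2 and TMEM123 did not pass the test (adjusted p = 0.623 and 0.657), at means of 134 and 398 CPM in knockout and 141 and 409 CPM in control libraries.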
